A study of Mus musculus with 3 samples.

Results

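The unfolded protein response and the integrated stress response were followed through 34 genes in macrophages sorted from mouse colon. The genes were taken by symbol from a list of sensors, transcription factors, endoplasmic reticulum (ER) chaperones and downstream targets. All 34 had a row among the 23997 genes of the deposited tables, and all 34 reached an average of 1 FPKM across libraries. FPKM counts sequenced fragments relative to transcript length and to the mapped fragments of the library. The lowest member, Asns, had a mean of 13.7 FPKM, so no member lay near that threshold.

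Secreted and membrane proteins fold in the ER, and macrophages carry a large ER load because they make lysosomal enzymes, complement and cytokines. When unfolded proteins build up, 3 membrane sensors, IRE1 (Ern1), PERK (Eif2ak3) and ATF6 (Atf6), raise chaperones, degradation factors and transport channels. PERK also slows translation by phosphorylating eIF2alpha. Kinases that sense other stresses act on the same site, and the transcription factor ATF4, which that step favours, turns on genes of amino acid supply and of recovery.

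The cells were Siglec-F-negative, Ly6C-low, CD64-positive colonic macrophages of untreated male C57BL/6 mice, labelled as 8.9 weeks old in one label and 9 weeks old in another. WT mice carried Lyz2-Cre alone, Tle3cKO mice Tle3f/f with Lyz2-Cre, and Tle4cKO mice Tle4f/f with Lyz2-Cre, so the Cre driver, active in myeloid cells generally, was shared by all groups. The sorted cells were pooled by genotype from 4 mice (WT), 3 mice (Tle3cKO) and 4 mice (Tle4cKO), which left 1 library per genotype and no replicate. No difference below therefore has an error, a test or a p-value, and genotype, pool of mice and library cannot be told apart. Where 3 values of a gene follow each other without labels, they belong to WT, the library labelled Tle3cKO and Tle4cKO in that order.

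The targeted genes were checked first. Tle3 stood at 38.6 FPKM for WT, 70.7 for the library labelled Tle3cKO, and 46.9 FPKM for Tle4cKO, so the label of the Tle3cKO library is not borne out by its gene-level value. Tle4 was at 8.50, 11.0 and 5.80 in the same order and was lowest in Tle4cKO. Deleted exons cannot be seen in values summed over a gene. The macrophage markers were present in all libraries, with Csf1r at 387 to 459 FPKM, C1qa at 1093 to 1243, Adgre1 (listed as Emr1) at 143 to 150 and Fcgr1, the gene of CD64, at 33.3 to 39.2. Lyz2, whose promoter drives the Cre, was low at 10.4 to 11.7 FPKM. Cre activity was not measured, and the level of Lyz2 RNA does not give it. Markers of cells that the gate leaves out were low as well, with Siglecf (listed as Siglec5) at 2.07 to 2.90 and Ly6c2 at 5.98 to 9.38. Totals over all genes ranged from 569961 to 610714 FPKM.

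The promoters of these genes are known for short elements through which ATF6, XBP1 and ATF4 act, and the elements found by letter search are shown here because members differ in which of them they carry. RefSeq promoters (GRCm38.p6, the same assembly as mm10) cover 250 bases before to 50 after a start site, and 30 of the 34 members matched. Hyou1, Sec61a1, Manf and Atf6 had no entry. On either strand, the ER stress element (CCAAT, 9 bases of any kind, CCACG) was found in 8 of 30 members (26.7%) and in 0.119% of all 32851 promoters of this length. The type II form (ATTGG, 1 base of any kind, CCACG) was found in Herpud1 and Dnajb11, and in 0.0365% of all promoters. The core of the C/EBP-ATF element (TGATG, 1 base of any kind, AA) was found in Asns, Chac1, Trib3 and Herpud1, that is in 4 of 30, and in 3.97% of all promoters. The core of the UPR element, TGACGTGG, was found in 0 members and in 0.676% of all promoters. In the members, no match overlapped a match to another of these elements.

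Each member with an ER stress element before its start is shown with 10 bases on either side, 5′ to 3′ on the strand of the gene, with the element in capitals (Creld2, Dnajc3, Hspa5, Pdia6 and Syvn1 are on the plus strand of the chromosome, Calr, Canx and Hsp90b1 on the minus strand); an element that begins with CGTGG is on the opposite strand. In mm10 coordinates they lie at chr2:34772015-34772053 (Hspa5), chr8:84847065-84847103 (Calr), chr10:86705628-86705666 and chr10:86705523-86705561 (Hsp90b1), chr11:50325790-50325828 (Canx), chr12:17266481-17266519 (Pdia6), chr14:118937817-118937855 (Dnajc3), chr15:88819510-88819548 (Creld2) and chr19:6046522-6046560 (Syvn1).
Hspa5: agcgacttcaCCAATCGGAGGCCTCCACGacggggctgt
Calr: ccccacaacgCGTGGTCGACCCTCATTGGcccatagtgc
Hsp90b1, distal: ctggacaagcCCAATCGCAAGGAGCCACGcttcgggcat
Hsp90b1, proximal: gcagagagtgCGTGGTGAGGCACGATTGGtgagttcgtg
Canx: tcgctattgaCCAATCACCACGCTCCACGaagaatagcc
Pdia6: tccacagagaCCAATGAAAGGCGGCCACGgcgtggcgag
Dnajc3: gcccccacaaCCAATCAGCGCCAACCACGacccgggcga
Creld2: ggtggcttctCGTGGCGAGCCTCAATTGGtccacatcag
Syvn1: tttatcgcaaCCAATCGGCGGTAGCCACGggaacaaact

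The next lines show the type II element of Herpud1 (chr8:94386367-94386397) and the C/EBP-ATF cores of Herpud1 (chr8:94386307-94386334), Chac1 (chr2:119351039-119351066) and Asns (chr6:7693215-7693242), written in the same way (Asns on the minus strand, the others on the plus strand); a core that begins with TT is on the opposite strand. Those of Trib3 and Dnajb11 lay after the start and are not printed.
Herpud1, type II: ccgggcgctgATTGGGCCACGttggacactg
Herpud1, C/EBP-ATF: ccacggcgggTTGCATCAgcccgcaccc
Chac1, C/EBP-ATF: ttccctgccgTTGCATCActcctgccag
Asns, C/EBP-ATF: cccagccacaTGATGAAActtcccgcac

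**Figure D1:**
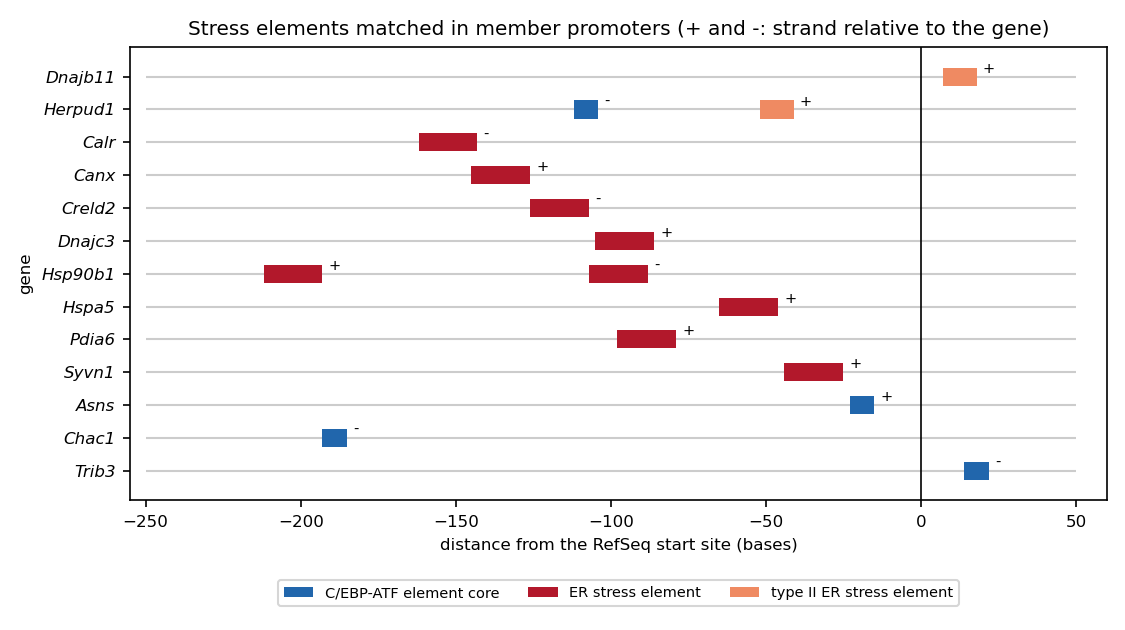
Matches to the 3 elements found in member promoters, by distance in bases from the RefSeq start site, with 1 line per gene and bars drawn to scale. The 9 ER stress elements of 8 genes lie before the start, the nearest in Syvn1 ending 26 bases before it and the farthest in Hsp90b1 beginning at -212.

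These genes were abundant. Their median level was 132 FPKM for WT, 136 for the library labelled Tle3cKO, and 150 FPKM for Tle4cKO, against 10.4, 10.5 and 10.4 over the 11114 genes that averaged 1 FPKM or more. At least 100 FPKM was reached by 20, 20 and 21 of the 34, and by 7.80%, 7.53% and 7.74% of those genes. Summed over the 34 genes the level was 8109 FPKM for WT, 8388 for the library labelled Tle3cKO, and 8842 FPKM for Tle4cKO. The sum was 279 FPKM above WT in the library labelled Tle3cKO and 733 above it in Tle4cKO. Hspa5 alone was 239 and 363 FPKM above WT. The summed excess is net, since members above and below WT offset each other, so it is less than the sum of the rises. Without Hspa5 the sums were 6266, 6305 and 6635 FPKM. These sums depend on scaling: with equal totals the excess over WT was 853 in the library labelled Tle3cKO, of which Hspa5 made up 376, and 893 in Tle4cKO, of which it made up 398. In RNA of pooled cells, more or fewer cells of a type and more or less RNA per cell cannot be told apart.

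**Figure D2:**
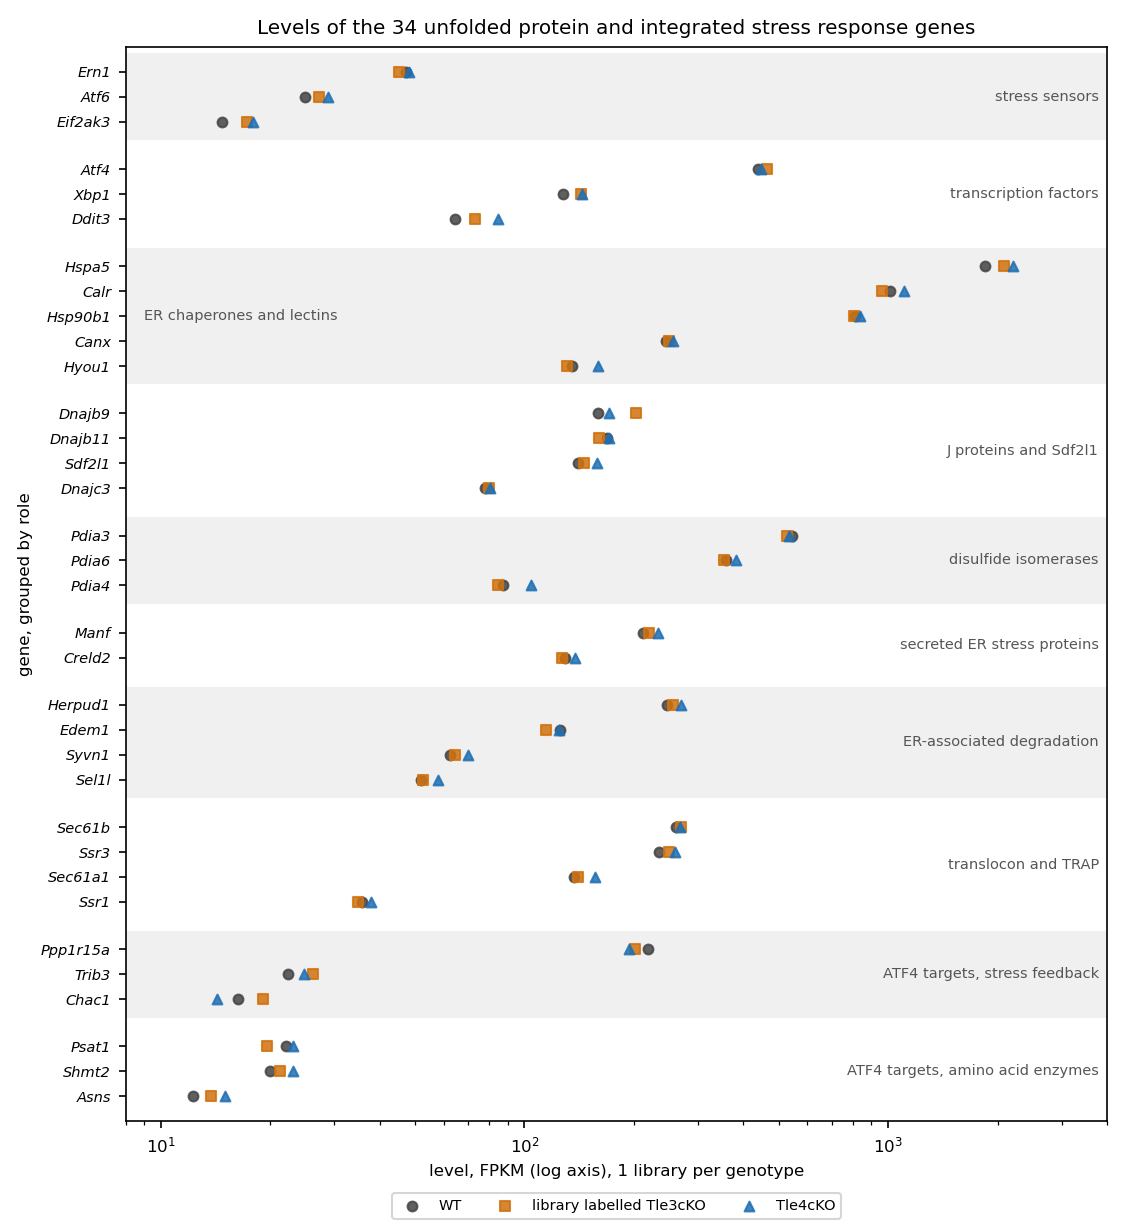
Level in FPKM (log axis) of each member in the 3 libraries, grouped by role, with 1 symbol per library and no error since each genotype is 1 library. Levels run from 12.2 FPKM (Asns in WT) to 2207 FPKM (Hspa5 in Tle4cKO), and the 3 symbols of a gene lie close together compared with the distance between genes.

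Tle4cKO was the highest library for 26 of the 34 genes, against 33.1% of all genes tested, and WT was the lowest for 20, against 32.0%. When the libraries were scaled to equal totals, the first count was 21, against 27.3%, and the second 30, against 46.3%. The differences were small. Each was expressed as a log2 ratio of FPKM plus a pseudocount of 1, and none of the 34 reached 1.5-fold in any of the 3 comparisons. In Tle4cKO against WT 30 of 34 were higher (background: 49.4% of genes tested), and their median log2 ratio was 0.13 against -0.003 for all genes tested. In the library labelled Tle3cKO against WT 21 of 34 were higher (background 47.6%), with a median of 0.04 against -0.01. Between the remaining pair 28 of 34 were higher in Tle4cKO than in the library labelled Tle3cKO (background 52.4%), with a median of 0.08 against 0.01. The first pair of comparisons share the WT library, so their values are given side by side only.

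Because the members are abundant, the same shares were taken over the 5695 genes averaging 10 FPKM or more, a cut chosen after the members' levels were seen. Of those genes 50.8% were higher in Tle4cKO than in WT, 40.7% in the library labelled Tle3cKO than in WT, and 60.3% in Tle4cKO than in the library labelled Tle3cKO. Scaling the libraries to equal totals instead of taking FPKM as deposited gave 32, 31 and 21 members higher in the same order, with 56.3%, 68.4% and 36.4% of all genes tested higher. The scaling turned the direction of 10 members in the library labelled Tle3cKO against WT (Hsp90b1, Calr, Pdia3, Pdia4, Pdia6, Ern1, Dnajb11, Creld2, Hyou1 and Ssr1), the farthest from 0 being Calr at -0.07 as deposited. It turned Pdia3 and Edem1 in Tle4cKO against WT, and 7 members between the remaining pair (Hsp90b1, Canx, Pdia3, Xbp1, Eif2ak3, Dnajc3 and Ssr3). Which library is named below as high or low for these genes holds for FPKM as deposited. The members' median less that of all genes moved little with scaling: it was 0.13, 0.05 and 0.08 as deposited and 0.13, 0.06 and 0.07 with equal totals.

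**Figure D3:**
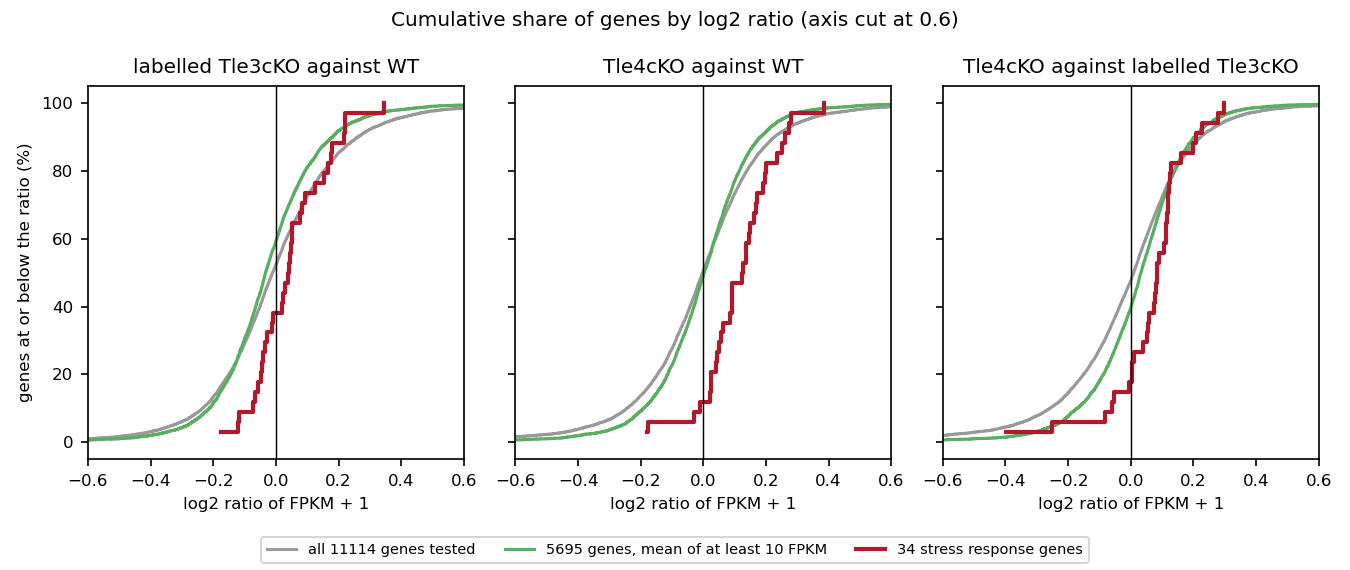
Cumulative share of genes (%) by log2 ratio in the 3 comparisons, for all 11114 genes tested, the 5695 averaging 10 FPKM or more and the 34 members. The members' line lies to the right of both others around 0 in Tle4cKO against WT, where 4 of 34 are below 0, and ends at 0.38.

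A difference of at least 1.2-fold was rare. Against WT 3 members were higher in Tle4cKO by that much (Ddit3, Asns and Eif2ak3) and 0 lower, with 7.73% of all genes tested higher and 8.69% lower; of the genes averaging 10 FPKM or more 4.27% were higher. Hspa5, at a log2 ratio of 0.26, lay just under it. In the library labelled Tle3cKO against WT only Dnajb9 was higher by 1.2-fold and 0 were lower, with 9.96% of all genes higher, 8% lower, and 5.04% higher among those at 10 FPKM or more. Pdia4 and Hyou1 were higher and Chac1 was lower in Tle4cKO than in the library labelled Tle3cKO, with 7.41% of all genes higher, 9.74% lower, and 5.3% higher among those at 10 FPKM or more. A difference of 1.5-fold either way was seen in 2.91%, 2.68% and 3.03% of all genes in the same order and in 0 members. The 3 members higher by 1.2-fold in Tle4cKO against WT are 8.82% of the 34. That is close to the 7.73% of all genes and above the 4.27% of those at 10 FPKM or more. In the library labelled Tle3cKO against WT the share was 2.94%, below both backgrounds. Between the remaining pair it was 5.88%, below that of all genes and close to the 5.3% at 10 FPKM or more. With equal totals 6 members (17.6%) in place of 3 were higher by 1.2-fold in Tle4cKO against WT, beside 9.23% of all genes tested. In the library labelled Tle3cKO against WT 7 (20.6%) in place of 1 were, beside 17.0%. How these shares compare with the background thus depends on the scaling and on the genes taken as background.

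**Figure D4:**
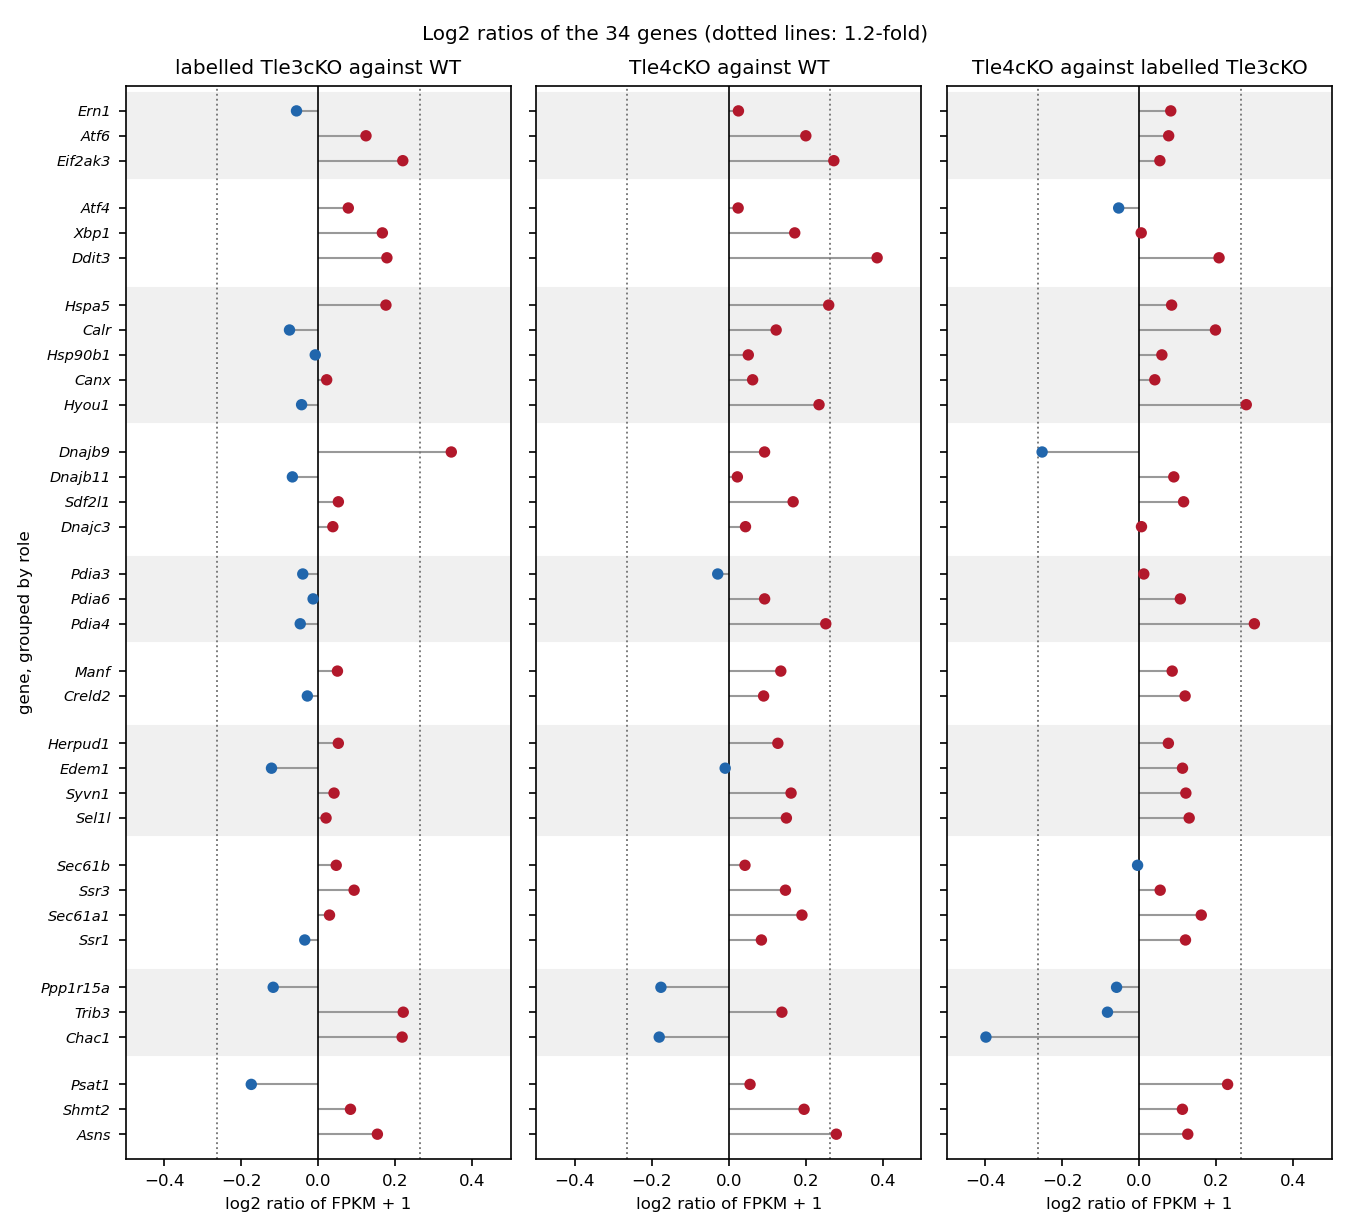
Log2 ratio of FPKM + 1 for each member in the 3 comparisons, in the same order of roles as the plot of levels, with red above 0 and blue below; dotted lines mark 1.2-fold. In Tle4cKO against WT 30 points lie right of 0, from 0.02 to 0.38, and 4 lie left of it (Chac1, Ppp1r15a, Pdia3 and Edem1).

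The sensors were low in level compared with most of the other members. Eif2ak3 (PERK; ENSMUSG00000031668.14, chr6:70844515-70905245) stood at 14.7 FPKM for WT, 17.3 for the library labelled Tle3cKO, and 18.0 FPKM for Tle4cKO. It was lowest in WT, with log2 ratios to WT of 0.22 and 0.27. Atf6, the sensor that is cut in the Golgi to release a transcription factor, was at 24.9, 27.2 and 28.8 FPKM, also lowest in WT. Ern1 (IRE1), the kinase and nuclease that splices Xbp1 mRNA, was at 47.2, 45.3 and 48.0 FPKM and hardly differed.

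Among the transcription factors Ddit3 had the largest difference of all 34 in Tle4cKO against WT. Ddit3 encodes CHOP, a factor of prolonged ER stress that is tied to cell death (chr10:127290793-127296291, from RefSeq). It stood at 64.4 FPKM for WT, 73.0 for the library labelled Tle3cKO, and 84.4 FPKM for Tle4cKO, that is 31.1% above WT in Tle4cKO. The log2 ratios to WT were 0.18 and 0.38. Its ends overlap those of Mbd6 and Mars by 77 and 71 bases, and reads there cannot be assigned with certainty. Xbp1 (ENSMUSG00000020484.18, chr11:5520659-5525893) was at 127 FPKM in WT and at 143 in each of the other libraries, a log2 ratio of 0.17 in both. Spliced and unspliced Xbp1 are not separated in a gene-level value, so IRE1 activity was not measured. Atf4 was abundant and near level, at 440, 464 and 447 FPKM; the ATF4 protein is set mainly by translation, which RNA levels do not show.

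Hspa5 was the most abundant member. It encodes BiP, the ER chaperone that holds the sensors inactive and binds unfolded chains (ENSMUSG00000026864.13, chr2:34771970-34777547). It stood at 1843 FPKM for WT, 2082 for the library labelled Tle3cKO, and 2207 FPKM for Tle4cKO, ranks 29, 17 and 20 among the 11114 genes tested. WT was the lowest, and the values were 12.9% and 19.7% above it. Hyou1, which exchanges nucleotide on BiP, was at 135, 131 and 159 FPKM, high in Tle4cKO alone. Its log2 ratio was -0.04 for the library labelled Tle3cKO to WT, 0.23 for Tle4cKO to WT and 0.28 between the last-named and the library labelled Tle3cKO. The lectin chaperone Calr, which binds glycoproteins in the ER lumen, was at 1015, 964 and 1105 FPKM, and its membrane-bound relative Canx was at 246, 249 and 256. Hsp90b1 (GRP94), a chaperone needed by Toll-like receptors and integrins, was at 810, 806 and 839. For this role 5 of 5 were higher in Tle4cKO than in WT, with a median of 0.12. In the library labelled Tle3cKO 2 of 5 were higher than WT, with a median of -0.01. When the libraries were scaled to equal totals 5 of 5 were higher, with a median of 0.09. Of all genes tested 68.4% were then higher, with a median of 0.08.

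J proteins send clients to BiP and start its ATP cycle. Dnajb9, which also returns IRE1 to its inactive state, was the member that stood out in the library labelled Tle3cKO (ENSMUSG00000014905.4, chr12:44205559-44210326). It stood at 160 FPKM for WT, 203 for the library labelled Tle3cKO, and 170 FPKM for Tle4cKO. The middle library was the high one, 27.2% above WT, with a log2 ratio of 0.35 to WT. The other J proteins were near level: Dnajb11 was at 168, 161 and 171 FPKM and Dnajc3, an inhibitor of the eIF2alpha kinases, at 78.0, 80.1 and 80.4. Sdf2l1, a partner of Dnajb11, was at 141, 146 and 158 FPKM, highest in Tle4cKO.

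The disulfide isomerases, which make and reshuffle disulfide bonds, differed from each other. Pdia4 (ENSMUSG00000025823.9, chr6:47796141-47813430) had 87.5, 84.7 and 104 FPKM. Only Tle4cKO was high, with log2 ratios of 0.25 to WT and 0.30 to the library labelled Tle3cKO. Pdia6 was at 358, 355 and 382 FPKM, and Pdia3, which works with Calr and Canx on glycoproteins, at 543, 528 and 532, highest in WT. The secreted ER stress proteins Manf, a BiP-binding trophic factor (212, 219 and 233 FPKM), and Creld2 (129, 127 and 138) were both highest in Tle4cKO.

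ER-associated degradation draws misfolded proteins out of the ER for the proteasome. Its membrane ligase Syvn1 (HRD1) was at 62.5, 64.3 and 70.0 FPKM, and the scaffold Sel1l that stabilises it at 51.9, 52.6 and 57.7. Herpud1, which joins the same complex and carries both a type II and a C/EBP-ATF match in its promoter, was at 247, 256 and 270 FPKM. These 3 were lowest in WT and highest in Tle4cKO, by log2 ratios of 0.13 to 0.16. Edem1, which extracts mannose-trimmed glycoproteins, was instead at 125, 115 and 124 FPKM, low in the library labelled Tle3cKO.

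The translocon admits new chains to the ER. Its channel subunit Sec61a1 was at 137, 140 and 157 FPKM, highest in Tle4cKO, with a log2 ratio of 0.19 to WT. The small subunit Sec61b was at 260, 269 and 268 FPKM. Of the TRAP complex, which assists the channel, Ssr3 was at 234, 249 and 259 FPKM and Ssr1 at 35.7, 34.8 and 37.9. Over the 22 ER members of these roles, from chaperones to translocon, 20 were higher in Tle4cKO than in WT with a median of 0.11, 12 in the library labelled Tle3cKO with a median of 0.02, and 20 in Tle4cKO against the library labelled Tle3cKO with a median of 0.10. With equal totals these counts were 22, 21 and 15 of 22, with medians of 0.14, 0.12 and 0.03. Among the 8 members with an ER stress element the medians were 0.09, 0.01 and 0.10 in the same order, with 8, 4 and 8 of 8 higher. With equal totals 8, 8 and 5 of 8 were higher, where the shares of all genes tested are the 56.3%, 68.4% and 36.4% given above.

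Of the feedback targets of ATF4 and CHOP, Chac1 and Ppp1r15a were below WT in Tle4cKO, where 20 of the 22 ER members were above it. Chac1, an enzyme that breaks down glutathione (ENSMUSG00000027313.3, chr2:119351229-119354381), stood at 16.3 FPKM for WT, 19.1 for the library labelled Tle3cKO, and 14.3 FPKM for Tle4cKO. It was above WT in the one and below it in the other, with log2 ratios of 0.22 and -0.18, and -0.40 between them, the largest difference of any member in any of the 3 comparisons. Ppp1r15a (GADD34), the phosphatase subunit that reverses eIF2alpha phosphorylation, was highest in WT at 219 FPKM, with 201 and 193 in the other libraries. Trib3, a pseudokinase that dampens ATF4, was at 22.4, 26.3 and 24.8 FPKM, lowest in WT. Of these 3 genes 2 were lower in Tle4cKO than in WT, and 3 were lower there than in the library labelled Tle3cKO.

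The amino acid enzymes under ATF4 were low in level. Asns, asparagine synthetase (ENSMUSG00000029752.12, chr6:7675169-7693254), stood at 12.2 FPKM for WT, 13.7 for the library labelled Tle3cKO, and 15.0 FPKM for Tle4cKO. Its log2 ratios to WT were 0.15 and 0.28. Shmt2, the mitochondrial serine hydroxymethyltransferase, was at 19.97, 21.2 and 23.0 FPKM, in the same order of libraries. Psat1, of serine synthesis, was at 22.2, 19.5 and 23.1 FPKM, lowest in the library labelled Tle3cKO. All 3 were higher in Tle4cKO than in WT, with a median of 0.20, where Chac1 and Ppp1r15a were lower.

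The rest of the pathway was followed in 7 lists of genes. Of their 134 measured genes 80 were higher in Tle4cKO than in WT (median 0.03), 73 in the library labelled Tle3cKO than in WT (0.01), and 83 in Tle4cKO than in the library labelled Tle3cKO (0.03). Of all genes tested 49.4%, 47.6% and 52.4% were higher in these comparisons. With equal totals 91, 105 and 54 of the 134 were higher, so the last majority turned, against 56.3%, 68.4% and 36.4% of all genes. Of the 134 genes 9 (6.72%) were at least 1.2-fold higher and 4 (2.99%) lower in Tle4cKO than in WT. The shares of all genes tested were 7.73% and 8.69%. Of the translocation and glycosylation genes 21 of 28 were higher in Tle4cKO than in WT, with a median of 0.08. Examples are Sec61g, the third channel subunit (79.0, 87.9 and 95.2 FPKM), Srp68 of the signal recognition particle (27.0, 32.4 and 33.7) and the signal peptidase subunit Spcs1 (58.1, 55.3 and 67.4). Sec61a2, a relative of Sec61a1, was the reverse, at 6.80, 5.89 and 5.32 FPKM. Other degradation genes were higher in 14 of 20 (median 0.05), with the mannosidases Edem2 at 20.2, 18.5 and 23.4 FPKM and Edem3 at 12.6, 13.8 and 15.5.

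Of the other ER folding genes, chaperones and enzymes outside the 34, 9 of 24 were higher than WT in Tle4cKO, with a median of -0.02. In the library labelled Tle3cKO 9 of 24 were higher, with a median of -0.05. With equal totals both directions turned, to 14 of 24 higher and medians of 0.01 and 0.05. Of all genes tested 56.3% and 68.4% were then higher, with medians of 0.02 and 0.08, so both lists stayed below all genes. Between Tle4cKO and the library labelled Tle3cKO 20 of 24 were higher in the first-named, with a median of 0.07 (13 of 24 and 0.01 under equal totals), beside 28 of 34 and 0.08 for the members. Erp29, an ER luminal protein, was at 99.8, 80.3 and 94.1 FPKM, and Sil1, another exchange factor of BiP, at 12.0, 9.46 and 11.0. The thioredoxin Tmx1 (45.8, 39.1 and 41.7) and the glucosidase subunit Prkcsh (42.2, 36.2 and 42.3) were likewise lowest in the library labelled Tle3cKO.

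Genes of the ATF4 and CHOP branch outside the members were mixed, with 9 of 21 higher in Tle4cKO than in WT (median -0.02) and 14 of 21 higher in the library labelled Tle3cKO (0.03). Under equal totals 11 of 21 (0.01) and 16 of 21 (0.13) were higher, beside 56.3% and 68.4% of all genes tested. Gdf15, a secreted stress cytokine, stood at 204 FPKM for WT, 303 for the library labelled Tle3cKO, and 262 FPKM for Tle4cKO, with log2 ratios to WT of 0.57 and 0.36. WT was the lowest for this gene, as for Ddit3. Atf5, a factor translated under eIF2alpha phosphorylation, was at 25.0, 29.4 and 32.3 FPKM, while Atf3, which is also an immediate early gene, was at 173, 170 and 139. Bbc3, a death-promoting BCL2 family gene, was at 11.7, 8.66 and 10.7. Cytosolic tRNA synthetases, many of them ATF4 targets, were higher in 19 of 20 in the library labelled Tle3cKO than in WT (median 0.07) and in 15 of 20 in Tle4cKO (0.05). Of all genes tested 47.6% and 49.4% were higher in these comparisons. With equal totals 20 of 20 and 15 of 20 were higher, with medians of 0.17 and 0.08, beside 68.4% and 56.3% of all genes. Sars was at 32.6, 38.8 and 40.9 FPKM, Tars at 37.8, 40.9 and 33.6, Iars at 29.2, 34.1 and 28.3 and Farsb at 8.52, 10.2 and 9.93.

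Of the eIF2alpha kinases and regulators outside the members, 5 of 11 were higher in each comparison with WT. Under equal totals 7 of 11 were higher in the library labelled Tle3cKO and 6 of 11 in Tle4cKO, beside 68.4% and 56.3% of all genes tested. Examples are Eif2s1, eIF2alpha itself (29.0, 33.4 and 30.6 FPKM), Eif2b1 of its exchange factor (6.61, 8.08 and 7.42), the adaptor Nck1 (8.96, 9.76 and 11.2) and Ppp1r15b, the constitutive partner of the eIF2alpha phosphatase (67.8, 60.005 and 60.2). Other sensors and membrane proteases were higher in 7 of 10 in each, with medians of 0.03. Tmbim6, an ER membrane protein that guards against cell death, was at 331, 324 and 346 FPKM, and Creb3 (20.5, 20.2 and 21.9), Creb3l2 (7.05, 7.59 and 6.44) and the kinase Map3k5 (7.07, 6.74 and 6.65) differed little.

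Cytosolic heat shock genes, which answer unfolded proteins outside the ER through HSF1, differed from the ER members. Of 20, 14 were lower in Tle4cKO than in WT, with a median of -0.08. Under equal totals 11 of 20 were lower, with a median of -0.05 beside 0.02 for all genes tested. Of the 20, 5 were lower by at least 1.2-fold, beside 8.69% of all genes tested. Dnajb1, a J protein of the cytosol, stood at 77.7 FPKM for WT, 66.6 for the library labelled Tle3cKO, and 52.9 FPKM for Tle4cKO, and Dnajb4 at 50.5, 45.8 and 37.0. Hspb1, a small heat shock protein, was the opposite, at 40.0, 59.2 and 63.7. Hsf2 was at 10.2, 5.40 and 8.14 FPKM.

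**Figure D5:**
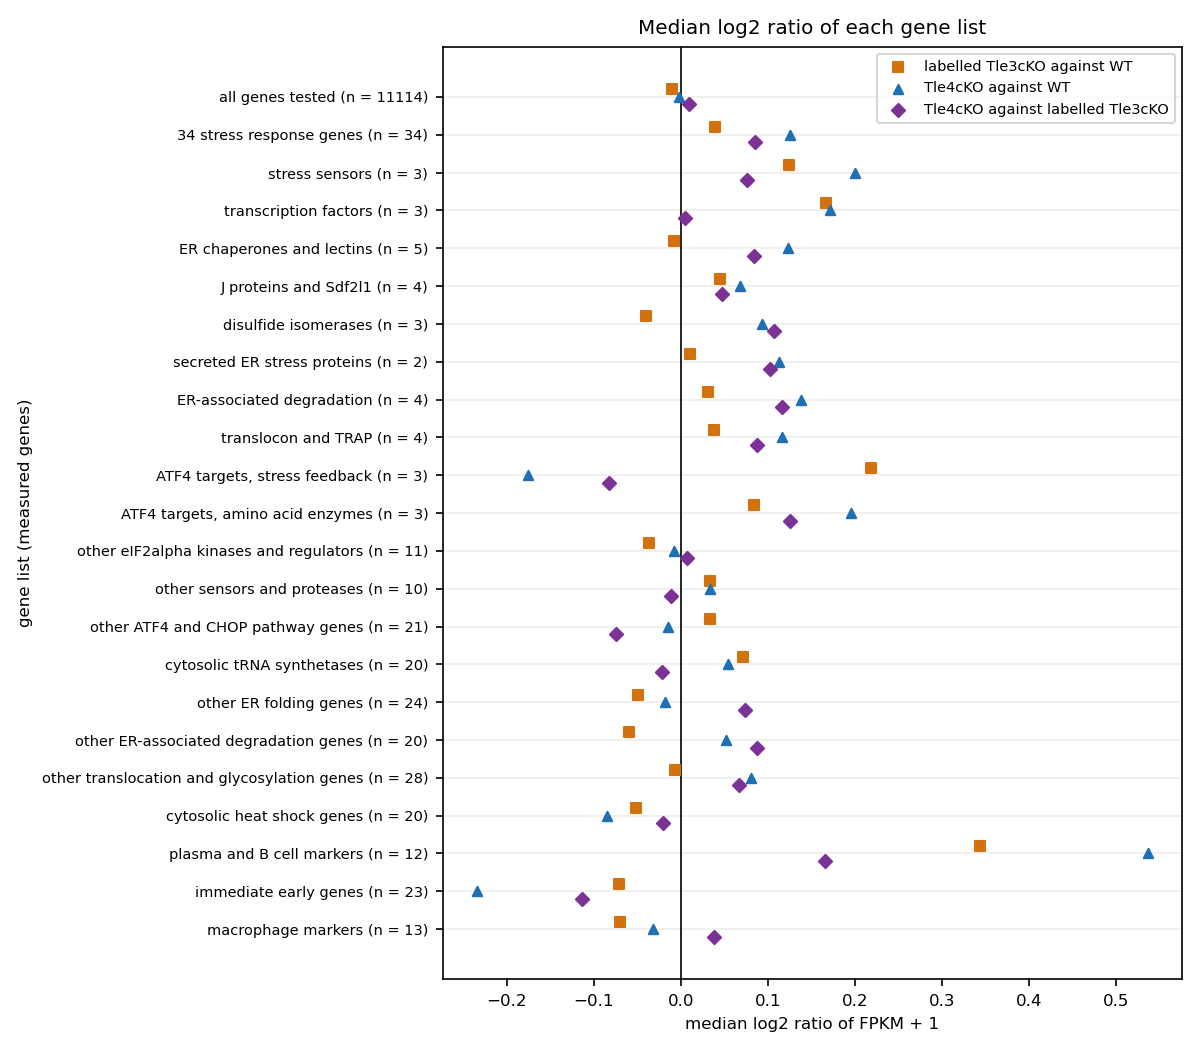
Median log2 ratio of FPKM + 1 for each role of the members, each other pathway list and the plasma and B cell, immediate early and macrophage lists, in the 3 comparisons, with the number of measured genes after each name. In Tle4cKO against WT the ER roles lie between 0.07 and 0.14, the feedback targets of ATF4 at -0.18, the cytosolic heat shock genes at -0.08 and the plasma and B cell markers at 0.54.

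Genes of some other cells also differed in the same comparisons. Plasma cells are filled with ER and express most of the ER members strongly, so their RNA in a sort can raise these values. Of the 12 plasma and B cell markers that averaged 1 FPKM or more, 12 were higher than WT in Tle4cKO (median 0.54) and 12 in the library labelled Tle3cKO (0.34). Their 14 rows summed to 158 FPKM for WT, 215 for the library labelled Tle3cKO, and 368 FPKM for Tle4cKO, and none of the 14 was at 0 in any library. The plasma cell gene Igj, which joins secreted antibody chains, was at 46.9, 57.9 and 192 FPKM, Mzb1, an ER cochaperone of antibody-making cells, at 6.48, 6.58 and 18.2, and Derl3, of ER-associated degradation, at 5.44, 5.81 and 7.87. The B cell gene Cd79a was at 19.5, 33.9 and 29.9. Igj, Mzb1 and Derl3 were highest in Tle4cKO, and Igj was also above WT in the library labelled Tle3cKO, with a log2 ratio of 0.30. Cd79a was above WT in both.

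Some sums and medians can be set beside this. The 34 genes summed to 733 FPKM more in Tle4cKO than in WT, and the plasma and B cell rows to 211 more. Of the 18 plasma and B cell markers listed only 14 had a row. A sum over marker rows does not bound what plasma cells add to other genes, so the sums cannot be weighed against each other. As the most plasma cell-rich, 10 members were listed by hand and not from a measurement here. They are Xbp1, Hsp90b1, Sdf2l1, Creld2, Manf, Pdia4, Edem1, Herpud1, Sec61b and Dnajb11. Plasma cells express most of the ER members, not only these 10, so the split cannot separate plasma cell RNA from other RNA. The 10 had a median of 0.11 in Tle4cKO relative to WT, with 9 of 10 higher. The other 24 members had a median of 0.13, with 21 of 24 higher. In the library labelled Tle3cKO the medians were 0.02 and 0.04, and 5 of 10 and 16 of 24 were higher. With equal totals these were 0.12 and 0.14, with 9 of 10 and 22 of 24. Under that scaling 68.4% of all genes tested were higher too, with a median of 0.08. How much of any member's value came from plasma cells was not tested.

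Goblet cells, the mucus-secreting epithelial cells of the colon, also hold much ER. Their 16 marker rows with those of other epithelial cells summed to 4.39 FPKM for WT, 9.50 for the library labelled Tle3cKO, and 49.0 FPKM for Tle4cKO, with Spink4 at 0, 0.560 and 18.6, Agr2, an ER disulfide isomerase of goblet cells, at 0.468, 0.971 and 8.10, and Muc2 at 0.128, 0.256 and 2.996. Of these rows 5, 2 and 1 were at 0 in the same order of libraries. Only 6 of them averaged 1 FPKM or more, and all 6 were higher in Tle4cKO than in WT. Spink4, Agr2 and Muc2 reached that average through their Tle4cKO values, so the filter itself favours this direction and the count adds no support to it. Their part in the ER members' values was not tested.

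Of 10 stromal and endothelial markers 8 were above WT in each of the other libraries, with a median of 0.27 for the library labelled Tle3cKO and of 0.20 for Tle4cKO. They summed to 246, 292 and 277 FPKM, and none was at 0. Glial markers were lower in Tle4cKO, with 3 of 3 measured below WT, a median of -1.04, and sums over 4 rows of 18.0, 18.4 and 6.44 FPKM. Of 4 measured T, NK and innate lymphoid markers 1 was higher than WT in Tle4cKO and 3 in the library labelled Tle3cKO. The 9 rows of that list summed to 413, 421 and 401 FPKM. Of 13 macrophage markers 5 were higher than WT in each of the other libraries, and the 13 summed to 6492, 5906 and 6237 FPKM. The part of stromal, endothelial, glial and lymphoid cells in the members' values was not tested.

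Immediate early genes, which respond quickly when tissue is handled, were lower in Tle4cKO, with 20 of 23 below WT and a median of -0.23. In the library labelled Tle3cKO 18 of 23 were below WT, with a median of -0.07 beside -0.01 for all genes tested. Under equal totals 10 of 23 were below WT, with a median of 0.03. Of all genes tested 68.4% were then higher, with a median of 0.08, so the early genes stayed below all genes. Ppp1r15a, the member that is itself an early response gene, was lowest in Tle4cKO like this list, as were Atf3 and Dnajb1. The sums of the 23 genes were 4027, 3781 and 3654 FPKM. Their part in the values of Ppp1r15a and Chac1 was not tested.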

How the data were processed

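RNA-seq values of 3 libraries, 1 per genotype, were used as deposited. The authors gave FPKM per gene, per the file headers. Per the submitters' processing notes TopHat2 2.1.0, Cufflinks 2.2.1 and the build mm10 were used; the role of each tool, strandedness and read depth are not given in these sources, so depth is unknown and no counting interval is given. Groups follow the sample titles.

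Log2 ratios used FPKM plus 1 over the 11114 genes averaging 1 FPKM or more, and members at or past 1.2-fold and 1.5-fold were counted beside all genes tested. With 1 library per group no test was run. The members and lists were chosen with earlier results of these data known. Besides all 34 members, up to 4 genes of each other list were named, those averaging 5 FPKM or more with the largest ratios, with fixed marker and targeted genes; Lyz2 was added after its value was seen.

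FPKM is relative to the library total, so very abundant genes move all others: the 10 highest genes held 18.9%, 16.6% and 17.0% of the total (WT, library labelled Tle3cKO, Tle4cKO). Of the members 8 overlap another protein-coding gene in RefSeq, and such values are less certain. Coordinates are from GENCODE M21 (mm10), 1-based, and for Ddit3, which has 2 overlapping entries there, from RefSeq. The arithmetic of ratios and counts was checked on copies of the WT values with set folds put in. That check holds no noise between libraries, so it does not bear on how sure the differences here are. Alternatives were pseudocounts of 0.1 and 5, other filters, 3 scalings and leaving out 10 members. Python 3.11.15, numpy 2.4.6, pandas 2.3.3 and matplotlib 3.10.9 were used.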

Additional observations from a re-analysis of the deposited data

How the results depend on the processing

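The median log2 ratio of the members kept its sign in all 8 alternatives of each comparison, between 0.12 and 0.16 in Tle4cKO against WT, 0.04 and 0.14 in the library labelled Tle3cKO against WT, and 0.02 and 0.09 in Tle4cKO against the library labelled Tle3cKO. The other filters on low values left every member in, so they could not change these medians or the counts of members. Counts past 1.2-fold were less stable. In Tle4cKO against WT 3 members were higher, but 1 with a pseudocount of 5 and 6 with equal totals. In the library labelled Tle3cKO against WT 1 became 7 with equal totals. In Tle4cKO against the library labelled Tle3cKO 2 higher and 1 lower became 0 and 2 with equal totals and 1 and 2 with an equal upper quartile, and the higher count was 1 when 10 members were left out. Equal totals raised the median of all genes tested from -0.01 to 0.08 in the library labelled Tle3cKO against WT and lowered it from 0.01 to -0.05 between the knockout libraries. The count of 1 without the 10 members follows from leaving out Pdia4. The other changes are arithmetic. A larger pseudocount draws every ratio toward 0, and a scaling shifts all ratios of a comparison by nearly the same amount. Why the totals of the libraries differ was not tested. No paired analysis was possible because each genotype is 1 library, and for the same reason no library could be left out.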
